A study of Homo sapiens with 20 samples.

Results

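Baseline RNA levels were compared between EVI1 clones and control lines in cultures that contained tetracycline (tet), which represses the EVI1 transgene. The comparison used 4 of the 20 arrays of the series, those labelled with tet at 48 h. The EVI1 clones were U937T_EVI1-HA E10 and E14, which carry an HA-tagged human EVI1 cDNA that is expressed once tet is removed. The control lines were the empty vector clone P2 (U937T_vec) and parental U937T. All are derivatives of U937, a monocytic line from a human lymphoma, and all were grown with puromycin and tet. E10, E14 and P2 were also grown with hygromycin, and U937T was not, so that hygromycin and the plasmid it selects differ between the control lines. E10, E14 and P2 are single clones. Each line gave 1 array, the line was taken as the replicate (n = 2 per group), and p-values measure the spread between these lines and arrays only.

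EVI1, encoded by MECOM, is a zinc finger transcription factor of hematopoietic stem cells whose overexpression marks aggressive myeloid leukemia. In a tet-repressible system a transactivator drives the transgene only when tet is absent, and low expression in its presence is known as leakiness. Cells grown out from a single cell carry whatever distinguished that cell, and keep it as the clone expands. The comparison therefore addressed how the clones differed from the control lines while tet was present.

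The lines were checked against markers of the myelomonocytic lineage. CD4, lysozyme (LYZ), the granule proteases ELANE and PRTN3, and AZU1 lay between 10.01 and 12.29 log2 in every line. SPI1, a transcription factor of the lineage, lay between 8.85 and 9.64, and the receptor CSF1R between 6.67 and 6.93. Myeloperoxidase (MPO), also a primary granule protein, was low at 4.87 to 5.29, in the range of the lymphoid markers, and the integrin ITGAM gave 5.19 to 5.67. The mature monocyte markers CD14 (4.13 to 4.17) and FCGR1A (3.29 to 3.60) were low in each, as was ANPEP (3.81 to 4.11). CD33 and CD68 were not tested. The 32 measured lymphoid markers had medians of 4.97 to 5.06, and the 22 epithelial and fibroblast markers medians of 5.48 to 5.64, with no line apart from the others. Since these are bulk cultures, fewer cells with a transcript and less transcript per cell cannot be told apart.

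MECOM was read first, because it checks the state of the switch. Its brightest probe set, used here, gave 7.13 in E10, 7.15 in E14, 6.90 in P2 and 6.48 in U937T. The other MECOM probe sets, near the intensity minimum of 3, gave differences of -0.11 to 0.17. They stayed at or under 3.36 in the clones without tet at 48 h. Both clones lay above both control lines, by a mean of 0.45 on the log2 scale (SE 0.15), and the difference was not called (limma, adjusted p = 0.53). It was 0.24 without U937T, 0.66 without P2, and 0.06 with the RNA integrity value of each array as a covariate. At 6, 12 and 24 h with tet the clones lay between 7.06 and 7.34, above both control lines at 48 h. Whether the transgene was expressed at a low level with tet was not tested. Without tet at 48 h, MECOM stood at 10.51 in E10 and 9.98 in E14, against 5.91 in P2 and 6.53 in U937T. MS4A3, a myeloid membrane protein that the study examined as an EVI1 target, gave 11.98 in both clones, 12.16 in P2 and 12.17 in U937T, a difference of -0.18 (SE 0.10, adjusted p = 0.59). A second MS4A3 probe set overlapped between the groups, with 10.56 and 10.47 in E10 and E14 and 10.555 and 10.47 in P2 and U937T (difference -0.0004). CD52, a surface glycoprotein of leukocytes, overlapped between the groups on the probe set used, with 5.20 and 4.95 in E10 and E14 and 5.22 and 4.62 in P2 and U937T. A dimmer CD52 probe set did not overlap, with 4.34 and 4.42 in E10 and E14 against 3.86 and 4.11 (difference 0.39).

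Across 18147 genes, limma called 0 genes higher and 0 lower in the clones at an adjusted p under 0.05. At an unadjusted p under 0.05, 901 genes (4.97%) were higher and 726 (4%) lower, 8.97% of all in both directions together. Other fits called a few genes. With the 8 arrays at 48 h and the line as a random block, 4 genes were called higher and 0 lower, and an intensity trend with robust variances called 41 higher and 16 lower. The 2 clones were the pair of lines with the fewest genes at least 2-fold apart: 5 genes between E10 and E14, 8 between P2 and U937T, and 19 to 21 between a clone and a control line. Over all genes the SD of the log2 differences was 0.180 between E10 and E14. It was 0.214 between P2 and U937T, within the 0.211 to 0.230 between a clone and a control line. These counts and SDs rest on 1 array per line and have no replicate check.

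The groups were then described by the gap between them, which is the distance from the lowest array of the higher group to the highest array of the lower group. The arrays of the groups did not overlap for 41.4% of all genes, with 24.4% higher and 17% lower in the clones. A gap of at least 1 log2 unit was found for 3 genes higher in the clones (RAC3, GINS4 and GNL3L) and for 3 lower genes (LINC00926, SPTBN1 and TPBG), 0.0165% of all genes in each direction. Where levels in the 6 clone arrays with tet at 6, 12 and 24 h are given below, they stand against the same 2 control arrays. None of the 15 genes with the widest gap in each direction was called in the 4-array fit.

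**Figure D1:**
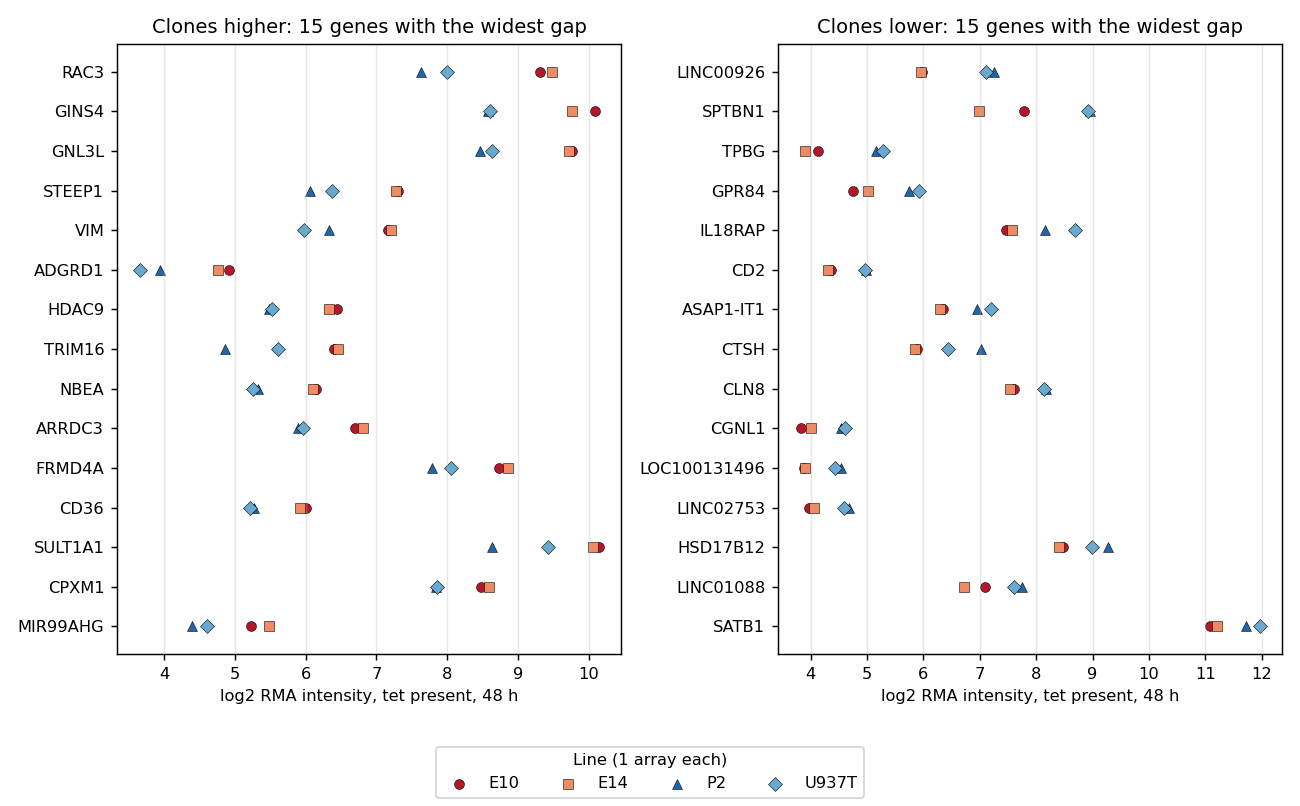
Log2 RMA intensity (x axis) of the 15 genes with the widest gap in each direction, in rows, with 1 point per line: E10 and E14 in red and orange, P2 and U937T in dark and light blue. RAC3 (left, top row) lay at 9.30 and 9.49 in the clones and at 7.63 and 7.99 in the control lines.

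RAC3, a small GTPase that acts on the actin cytoskeleton, gave 9.30 in E10, 9.49 in E14, 7.63 in P2 and 7.99 in U937T. The clones were 3.00-fold higher (log2 difference 1.58, SE 0.14, adjusted p = 0.062), and every clone array lay above every control array. In the 6 clone arrays with tet at 6, 12 and 24 h it lay between 9.08 and 9.44. Without tet at 48 h it was lower in every line than with tet, at 8.14 and 7.95 in E10 and E14 and 6.97 and 7.23 in P2 and U937T, and the groups were still apart (limma, adjusted p = 0.0054). RAC3 was called in the fits of the 8 arrays at 48 h (adjusted p = 0.0358) and of all 20 arrays (adjusted p = 6.07e-05). Both fits rest on repeat arrays of the same 4 lines, with an estimated correlation within a line of -0.14 in the first and 0.05 in the second, so that they treat these arrays as nearly independent.

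SULT1A1, a phenol sulfotransferase, gave 10.14 and 10.06 in E10 and E14, 8.63 in P2 and 9.43 in U937T. Both clones were above both control lines, and the control lines were themselves apart, with a mean difference of 1.07 (SE 0.23, adjusted p = 0.45). A further SULT1A1 probe set gave a difference of 0.94, and another, at 6.28 to 6.34 in all lines, gave 0.02. The first 2 are of the x_at type, whose probes can match related genes. TRIM16, a tripartite motif protein, gave 6.40, 6.46, 4.85 and 5.61 in E10, E14, P2 and U937T (difference 1.20, SE 0.22). CPXM1, a member of the carboxypeptidase family, gave 8.48, 8.60, 7.84 and 7.85 (difference 0.69, SE 0.10). These groups did not overlap, and the earlier clone arrays with tet lay between 9.95 and 10.21 for SULT1A1, 6.48 and 8.35 for TRIM16, and at 8.49 or above for CPXM1.

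FRMD4A, a FERM domain scaffold protein, gave 8.73 in E10, 8.85 in E14, 7.79 in P2 and 8.06 in U937T (difference 0.87, SE 0.12). A pair of other FRMD4A probe sets of high intensity gave differences of 0.90 and 1.18. The clones were above the control lines on all of these probe sets, and the remaining 5 probe sets, at or under 4.50 in every line, gave differences from -0.17 to 0.21. Without tet at 48 h FRMD4A was down to 7.43 and 7.37 in the clones, next to 7.36 in U937T and 7.05 in P2.

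VIM, NBEA, HDAC9, ADGRD1 and CD36 were higher in the clones with tet and again, at higher levels, without it. VIM, the intermediate filament vimentin, gave 7.17 and 7.20 in E10 and E14 against 6.32 and 5.97 in P2 and U937T (difference 1.04, SE 0.13, adjusted p = 0.17). Without tet it stood at 10.27 and 10.26 in the clones and at 8.38 and 8.41 in the control lines. The order of the groups was the same in both conditions, and every line was higher without tet. NBEA, a protein of membrane traffic, gave 6.14 and 6.10 in the clones and 5.33 and 5.25 in the control lines with tet (difference 0.83, SE 0.10), and a second probe set gave 0.96. HDAC9, a class IIa histone deacetylase, gave 6.45 and 6.32 against 5.47 and 5.52 (difference 0.89, SE 0.10), and its other 4 probe sets, all under 4.01, gave -0.12 to 0.32. ADGRD1, an adhesion G protein-coupled receptor, gave 4.91 and 4.76 against 3.94 and 3.66 (difference 1.04, SE 0.13). CD36, a scavenger receptor of monocytes, gave 6.01 and 5.93 against 5.27 and 5.21 (difference 0.73, SE 0.10), and its next brighter probe sets gave 0.70 and 0.50. The clones were above the control lines in each of these genes, and VIM, NBEA and ADGRD1 were called in the fit of the 8 arrays at 48 h, each at an adjusted p of 0.0443, which again rests on repeat arrays of the lines.

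GINS4, GNL3L and STEEP1 behaved otherwise. GINS4, a subunit of the GINS complex of DNA replication, gave 10.09 in E10, 9.76 in E14, 8.58 in P2 and 8.60 in U937T (2.52-fold, SE 0.13 on the log2 scale, adjusted p = 0.07). In the same clones with tet at 6, 12 and 24 h it lay between 7.93 and 8.65, at or below the level of the control lines apart from 1 array. The other 3 GINS4 probe sets gave differences of -0.13 to 0.16. GNL3L, a nucleolar GTP-binding protein, gave 9.77, 9.72, 8.47 and 8.64 in E10, E14, P2 and U937T, and 7.56 to 8.55 in the earlier clone arrays. Of its other 3 probe sets, 1 gave a difference of 0.91, and the others -0.16 and -0.10. STEEP1, which takes part in the exit of STING from the endoplasmic reticulum, gave 7.30, 7.27, 6.06 and 6.37 at 48 h and 3.36 to 6.27 in the clones at earlier times, and its other probe set gave -0.13. For these 3 genes the clones at 48 h were apart from the control lines and also from the same clones at earlier times. Without tet at 48 h GNL3L gave 8.50 and 7.71 in the clones against 7.15 and 7.19, and STEEP1 6.61 and 5.32 against 4.25 and 3.83. GINS4 then overlapped between the groups, with 8.94 and 7.88 against 8.17 and 7.76. The control lines were read at 48 h only. The remaining genes of the 15 with the widest gap were ARRDC3, an arrestin domain protein (difference 0.82), and the long noncoding RNA MIR99AHG (0.85), whose earlier clone arrays ranged from 5.69 to 6.91 and from 4.05 to 5.75 and so overlapped the control lines.

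**Figure D2:**
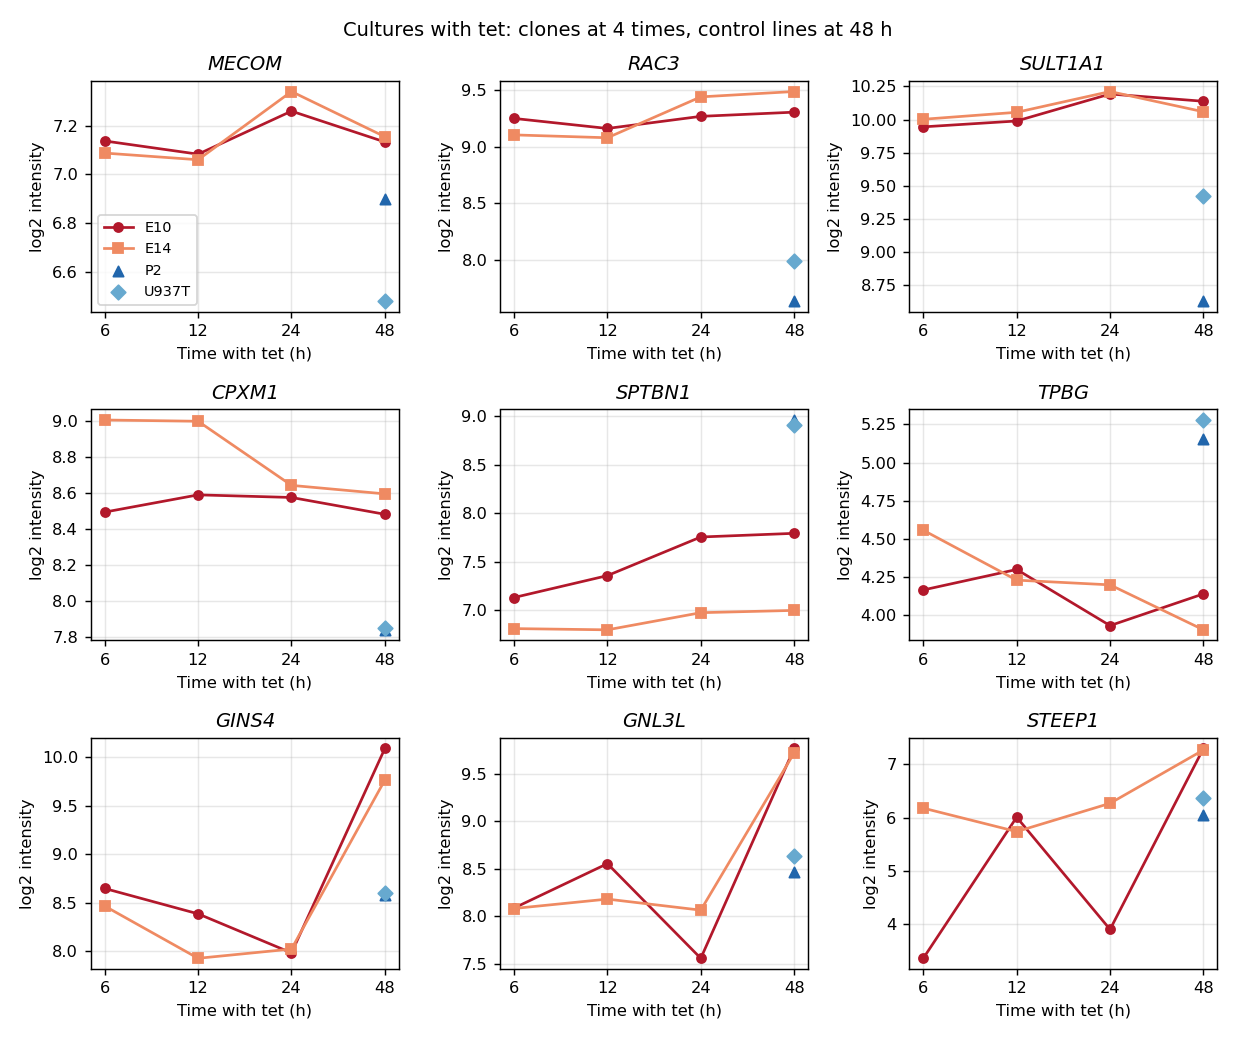
Log2 RMA intensity (y axes, each with its own range) against time with tet in hours (x axes, evenly spaced labels) for 9 genes, with E10 and E14 as lines of 4 arrays each and P2 and U937T as points at 48 h. RAC3, SULT1A1, CPXM1, SPTBN1 and TPBG in the clones stayed on the same side of the control lines at every time, whereas GINS4, GNL3L and STEEP1 in the clones were higher at 48 h than at any earlier time.

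Among the lower genes, SPTBN1, the nonerythroid beta chain of the membrane skeleton protein spectrin, gave 7.79 in E10, 6.996 in E14, 8.96 in P2 and 8.92 in U937T. The clones were 2.92-fold lower (log2 difference -1.55, SE 0.23, adjusted p = 0.29), with E10 between E14 and the control lines. The other 10 SPTBN1 probe sets were dimmer and did not follow in size. The brightest of them gave -0.47 and -0.02, and the whole set ranged from -1.17 to 0.35. The clones lay at 6.79 to 7.75 at earlier times with tet, and at 8.38 and 7.57 without tet at 48 h against 9.42 and 9.18. TPBG, an oncofetal membrane glycoprotein, gave 4.14 and 3.90 in E10 and E14 against 5.16 and 5.28 in P2 and U937T, which was 2.29-fold lower (SE 0.12 on the log2 scale, adjusted p = 0.07), and 3.93 to 4.56 in the earlier clone arrays. LINC00926, a long noncoding RNA, gave 5.98 and 5.97 against 7.26 and 7.12, which was 2.32-fold lower (SE 0.10, adjusted p = 0.062). A second LINC00926 probe set, gave 6.11, 6.07, 6.43 and 6.10 in E10, E14, P2 and U937T and overlapped between the groups.

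IL18RAP, GPR84 and CD2 encode surface proteins of leukocytes. IL18RAP, the accessory chain of the interleukin 18 receptor, gave 7.46 and 7.57 in the clones against 8.17 and 8.70 (difference -0.92, SE 0.17). GPR84, a receptor for medium-chain fatty acids, gave 4.75 and 5.02 against 5.74 and 5.93 (difference -0.95, SE 0.13). CD2, an adhesion molecule of T cells, was low in all lines, with 4.36 and 4.32 against 4.98 and 4.96 (difference -0.63, SE 0.10). The clones lay below the control lines in each, and the earlier clone arrays of GPR84, at 5.49 to 5.89, overlapped the control lines. SATB1, a chromatin organizer, gave 11.08 and 11.20 against 11.72 and 11.96 (difference -0.70, SE 0.12), and its other probe sets gave -0.71 and -0.99. HSD17B12, an enzyme of fatty acid elongation, gave 8.47 and 8.40 against 9.28 and 8.99 (difference -0.70), and the lysosomal protease CTSH gave 5.88 and 5.86 against 7.02 and 6.44 (difference -0.86), with earlier clone arrays up to 6.56. CLN8, a protein of the endoplasmic reticulum, gave a difference of -0.58. Of its other 4 probe sets, 3 lay between -0.75 and -0.37 and 1 gave -0.03. The junction protein gene CGNL1 and the noncoding or uncharacterized genes ASAP1-IT1, LOC100131496, LINC02753 and LINC01088 made up the rest, with differences from -0.77 to -0.59.

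CHFR, a ubiquitin ligase of the mitotic checkpoint, was picked once its values were known. It has 3 probe sets. Of these, 1 that was not used in the comparison gave 2.94 in E10, 3.10 in E14, 5.55 in P2 and 5.05 in U937T, a difference of -2.28. The clones thus lay at the intensity minimum of 3, so that the size of this difference is not firm. The probe set stayed between 2.85 and 3.21 in all 8 clone arrays with tet, and without tet at 48 h it gave 2.92 and 3.06 in the clones against 5.90 and 5.31. The other CHFR probe sets gave differences of -0.43 and -0.19, so that the probe sets of this gene disagreed in size. When each gene was read on its most variable probe set, CHFR was the only gene called, with an adjusted p of 0.0178, a choice that favors probe sets with a large difference.

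Genes whose groups did not overlap and whose means were at least 0.5 apart on the log2 scale numbered 84 higher in the clones (0.463% of all genes) and 49 lower (0.27%). They were followed in arrays that this choice had not used. Without tet at 48 h, in the same lines, 65 of the 84 (77.4%) had both clones above both control lines, and 28 of the 49 (57.1%) had both clones below. Over all genes tested the corresponding share was 37%. The lines are the same in both conditions, so that these shares add no further replicates. Without tet the clones also express EVI1, and the part of EVI1 in these shares was not tested. In the earlier clone arrays with tet, 47 of the 84 (56%) lay above both control lines in every array. Of the 49, 33 (67.3%) lay below both in every array, and over all genes tested the corresponding share was 18.2%. The control arrays in this last comparison are those used in the choice.

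Changes after tet withdrawal were read in the clones at 24 h, without against with tet. The 4 arrays at 24 h are not those of the baseline comparison, but the fit took its spread from all 16 clone arrays, which include E10 and E14 with tet at 48 h. Of the 84 genes higher at baseline, 34 (40.5%) rose and 4 (4.76%) fell at an adjusted p under 0.05, whereas 7.93% of all genes rose and 9.11% fell. Of the 49 lower genes, 0 rose and 5 (10.2%) fell at this threshold. The median change was 0.04 for the 49 and 0.29 for the 84. With the 12 clone arrays at 6, 12 and 24 h alone, 39.3% of the 84 rose, against 7.16% of all genes, and 0% of the 49. The E14 arrays at 24 h had the highest 3′ minus 5′ differences of the series (1.52 with and 1.40 without tet), a measure of RNA integrity given below, and without them 27.4% of the 84 rose, against 2.46% of all genes. The share was 23% for genes with means at least 0.3 apart, and 17.5% when each gene was read on its most variable probe set, where 4.61% of all genes rose. No control array at 24 h entered, so that the loss of tet and the induction of EVI1 cannot be told apart in this change.

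**Figure D3:**
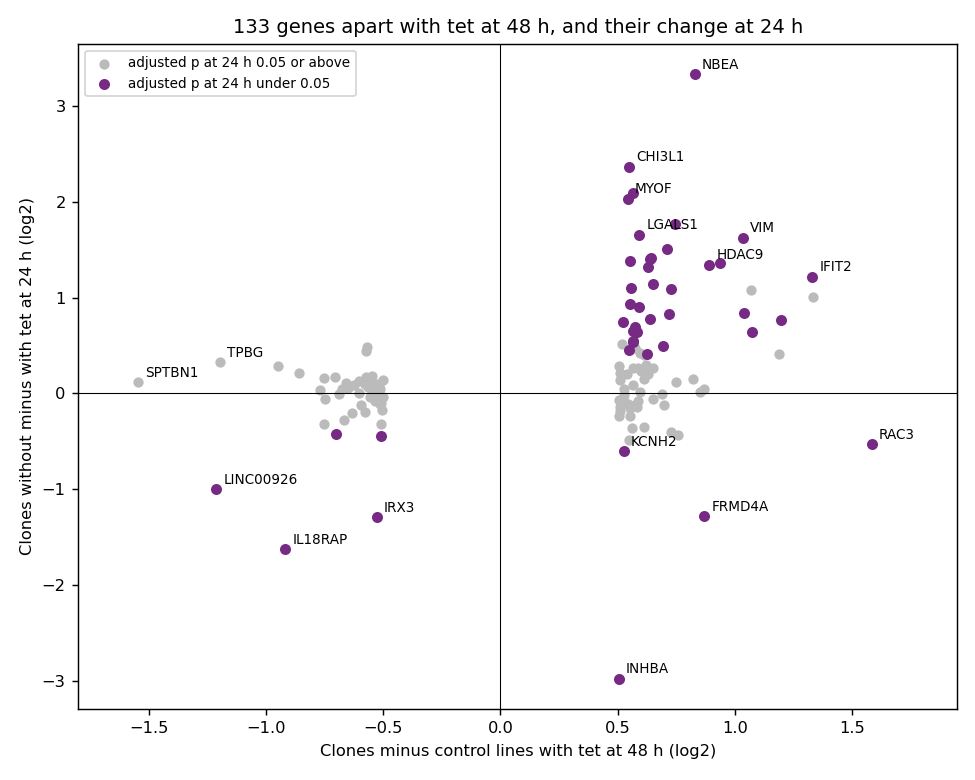
Log2 change of the clones without minus with tet at 24 h (y axis) against the log2 difference of the clones minus the control lines with tet at 48 h (x axis) for the genes that were apart at baseline, 1 point per gene, purple where the change at 24 h had an adjusted p under 0.05. At an adjusted p under 0.05, 34 of the 84 genes on the right rose, up to NBEA with 3.33. Of the 49 on the left, 0 rose at this threshold, and their median change was 0.04.

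Among the genes that were higher at baseline and rose at 24 h, NBEA rose by 3.33 on the log2 scale (adjusted p = 3.34e-08), VIM by 1.62 and HDAC9 by 1.34. In the control lines at 48 h these genes were also higher without than with tet. NBEA gave 7.93 and 7.94 in P2 and U937T without tet against 5.33 and 5.25 with it. HDAC9 gave 6.56 and 6.40 against 5.47 and 5.52. CHI3L1, a chitinase-like protein of macrophages, gave 6.57 and 6.24 in E10 and E14 against 5.67 and 6.05 in P2 and U937T with tet, and rose by 2.36 at 24 h. MYOF, a ferlin of membrane repair, gave 5.87 and 5.81 against 5.28 and 5.30 and rose by 2.03, and LGALS1, galectin 1, gave 10.26 and 10.16 against 9.62 and 9.62 and rose by 1.66. The interferon-stimulated genes IFIT2 and IFIT1 rose by 1.22 and 1.40. The clones were above the control lines with tet at 48 h in each, which is how these genes were chosen. In the earlier clone arrays with tet, IFIT1 (4.72 to 5.91) and IFIT2 (5.39 to 6.17) overlapped the control lines.

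The 4 genes that were higher at baseline and fell at 24 h were INHBA, FRMD4A, KCNH2 and RAC3. INHBA, which encodes the activin A subunit, gave 10.57 and 10.59 in the clones against 9.71 and 10.44, and fell by 2.97. Without tet at 48 h INHBA was also lower in the control lines, at 8.51 in P2 and 9.06 in U937T. FRMD4A fell by 1.28, the potassium channel gene KCNH2 by 0.60 and RAC3 by 0.53. Among the lower genes, IL18RAP fell by 1.62, the homeobox gene IRX3 by 1.29, LINC00926 by 1.00, PRTN3 by 0.44 and SATB1 by 0.42. IL18RAP was higher without tet at 48 h in the control lines, at 8.98 and 8.97 in P2 and U937T against 8.17 and 8.70 with it.

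Genes of known pathways and cell types were summarized in 33 lists. Over all genes the median difference was 0.01, and 4.97% were higher and 4% lower at an unadjusted p under 0.05. In the list of the integrated stress response and amino acid synthesis, 12 of 30 measured members were higher and 0 lower at this threshold, 27 of 30 differences were above 0, and the median was 0.20. In this response, phosphorylation of a translation factor favors synthesis of the transcription factor ATF4, which turns on genes for amino acid uptake and synthesis. None of the members was called after adjustment.

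SLC7A11, a subunit of the cystine transporter, gave 10.41 in E10, 10.59 in E14, 9.86 in P2 and 9.95 in U937T (difference 0.60, SE 0.11, adjusted p = 0.34). SLC3A2, its heavy chain, gave 10.83 and 10.77 in the clones against 10.45 and 10.33 (difference 0.41, SE 0.10). ASNS, asparagine synthetase, gave 10.23 and 10.35 against 9.67 and 9.89 (difference 0.51, SE 0.12). The clones were above the control lines in all of them. The stress regulators and effectors ATF3 (7.12 and 7.14 against 6.71 and 6.23), DDIT4 (11.59 and 11.74 against 10.95 and 11.21) and CHAC1 (7.60 and 7.71 against 7.23 and 7.06) were likewise apart, by 0.65, 0.58 and 0.51. ATF4 itself gave 12.55 and 12.54 against 12.37 and 12.47.

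For the list as a whole, the order was not the same in other arrays of these lines. Without tet at 48 h the list's median was -0.28, with 3 members called higher and 12 lower, against 8.06% and 4.97% of all genes. The 3 called higher were ATF3 (difference 1.16), DDIT4 (0.60) and SLC7A11 (0.46), in which the clones lay above the control lines in both conditions. For 13 of the 30 members (43.3%) the clones were above both control lines with tet and below both without tet, against 5.44% of all genes. ASNS then gave 9.04 and 9.01 in E10 and E14 against 9.23 and 9.33, and SLC3A2 gave 9.48 and 9.44 against 9.86 and 9.93. With each clone taken as its mean over 6, 12, 24 and 48 h with tet, the list's median was -0.016, and the difference of DDIT4 was -0.40. The control lines were read at 48 h only, so that these differences mix line and time. DDIT4 with tet went from 9.67 at 6 h to 11.59 at 48 h in E10, and from 9.88 to 11.74 in E14.

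**Figure D4:**
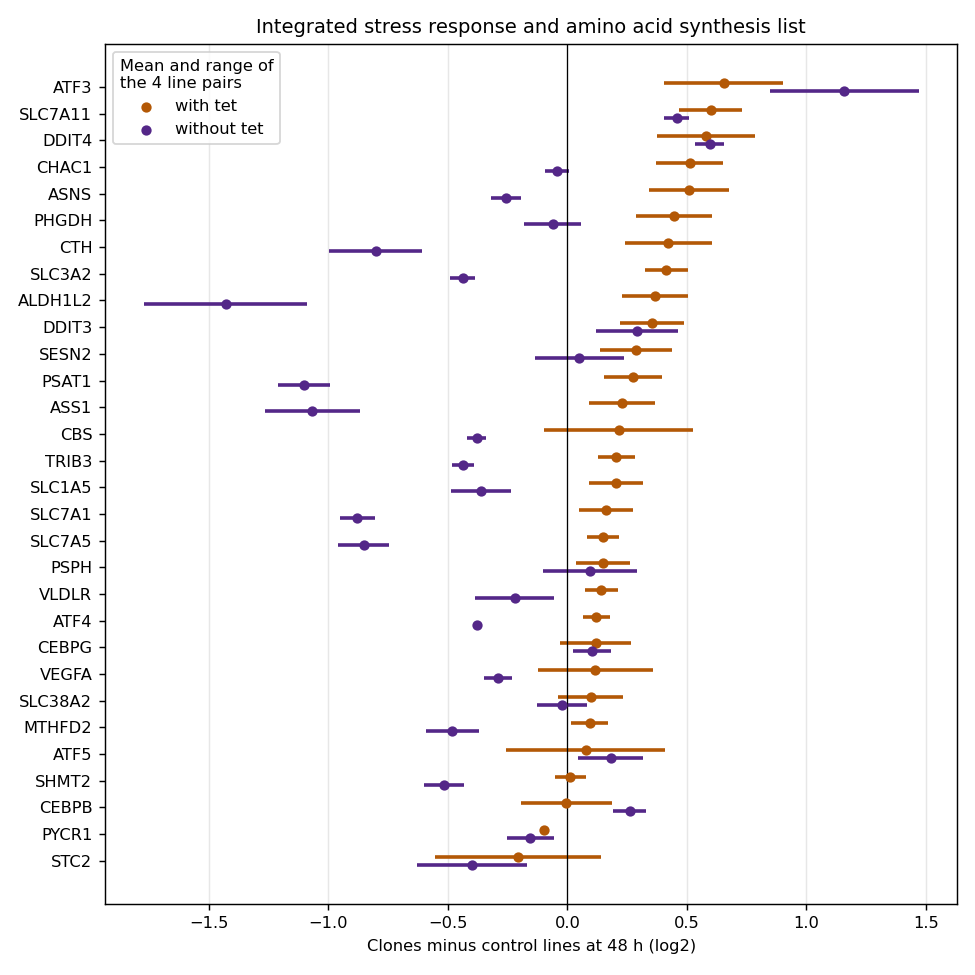
Log2 difference of the clones minus the control lines at 48 h (x axis) for the 30 measured members of the integrated stress response and amino acid synthesis list, in rows, with tet in orange and without tet in purple. Points are means and bars span the 4 clone-control pairs of lines. With tet, 27 members lie above 0, and without tet, 12 were called lower.

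Since members of this list are known to carry a composite site for C/EBP and ATF factors, RefSeq promoter sequences (GRCh38.p14, 250 bases before to 50 after the start of transcription) were searched for TGATGNAA on both strands. Promoters were found for 24 of the members, and 5 of them (20.8%) held these letters, against 2.42% of the 14199 promoters of genes tested and 3.67% of all 27305. They belong to ATF3, ASNS, CHAC1, SLC3A2 and SLC7A1, and in the last pair the match lies after the start. The 3 stretches upstream of the start are shown because these genes are among those with the larger differences, with the match in capitals. A match describes the letters of the promoter and shows no binding.
ATF3, chr1:212565190-212565249, plus strand: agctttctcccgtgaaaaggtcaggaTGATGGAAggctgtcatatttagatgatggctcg
ASNS, chr7:97872443-97872502, minus strand: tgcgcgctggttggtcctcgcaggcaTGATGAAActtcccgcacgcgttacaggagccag
CHAC1, chr15:40953236-40953295, plus strand, match in the reverse direction: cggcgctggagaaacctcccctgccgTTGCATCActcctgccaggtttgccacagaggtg

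Interferon-stimulated genes had a median of 0.09, with 7 of 37 higher and 2 lower at an unadjusted p under 0.05. IFIT2, an antiviral protein, gave 6.35 in E10, 6.94 in E14, 6.01 in P2 and 4.62 in U937T (difference 1.33, SE 0.41, adjusted p = 0.53), so that U937T was far below the other lines. IFIT1 gave 5.64 and 5.84 against 5.50 and 4.70, and the RNA sensor IFIH1 gave 6.34 and 6.58 against 5.96 and 5.98. IFI44 went the other way, with 3.21 and 3.47 against 4.47 and 3.70. Without tet at 48 h, 27 of the 37 genes were called higher in the clones, against 8.06% of all genes, and the median was 1.00.

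Monocyte and macrophage maturation genes had a median of 0.02, with 6 of 35 higher and 2 lower. Besides CD36 and CHI3L1, the transcription factor KLF4 was among them, with 6.31 and 6.49 against 5.73 and 5.69 (difference 0.69, SE 0.11). Primary granule and promyelocyte genes had a median of -0.17, with 1 of 19 higher and 4 lower. PRTN3, proteinase 3, gave 11.66 and 11.40 against 12.02 and 12.07 (difference -0.51, SE 0.12), and cathepsin G, CTSG, 12.34 and 11.87 against 12.45 and 12.51 (-0.37, SE 0.16). LYZ was higher, with 11.66 and 12.23 against 11.60 and 11.20 (difference 0.55, SE 0.21). None of these differences was called. Without E14 the difference was -0.14 for CTSG and 0.26 for LYZ, so that E14 carried most of the first.

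Genes for drug efflux, glutathione and detoxification had 7 of 38 higher and 2 lower, with a median of 0.03. The quinone reductase NQO1 gave 7.80 and 8.09 against 7.56 and 7.13 (difference 0.60, SE 0.17). Cell cycle inhibitors and p53 target genes had 5 of 22 higher and 0 lower, with a median of 0.07, and hematopoietic stem and progenitor genes 2 of 18 higher and 0 lower, with a median of -0.03. KIT, the stem cell factor receptor, was one of the latter, with 5.62 in E10, 5.02 in E14, 4.48 in P2 and 4.42 in U937T (difference 0.87, SE 0.19). Of 14 measured genes reported earlier as EVI1 targets, 2 were higher and 1 lower, and FOS gave 4.98 and 4.91 against 4.36 and 4.40 (difference 0.57, SE 0.10). Over all 33 lists, limma called 0 members in either direction after adjustment.

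Differences confined to 1 line were described by its distance from the nearest of the other 3 lines. A distance of at least 1 log2 unit was found for 3 genes in U937T, 2 in E10, 1 in P2 and 0 in E14. MAN1A1, a mannosidase of glycoprotein processing, gave 3.37 in U937T and 5.61, 5.65 and 5.72 in E10, E14 and P2, and without tet 2.94 against 5.51, 5.37 and 5.79. The 3 clones were alike in MAN1A1, and U937T was 2.24 below the nearest of them. The clones differ from U937T in hygromycin, in the plasmid it selects and in cloning, which cannot be told apart here. IFIT2 and JUN were the other genes of U937T, and JUN, a subunit of the AP-1 transcription factor, was at 7.97 in U937T, 1.03 below the nearest of the other lines. IL23R, a cytokine receptor chain, was at 5.24 in P2 and at 3.51 to 3.94 elsewhere. PTPRO, a receptor tyrosine phosphatase, was at 11.41 in E10 and at 12.52 to 12.71 elsewhere, and RPLP2, a ribosomal stalk protein, at 5.05 in E10 and at 6.10 to 6.64 elsewhere. Without tet E10 was again lowest in both, at 12.08 against 12.16 to 12.39 for PTPRO and at 5.43 against 5.63 to 5.88 for RPLP2, and the distances were smaller.

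Neighboring genes were examined because single clones can differ over chromosome segments. Medians over windows of 20 neighboring measured genes ran from -0.21 to 0.20 for the clones minus the control lines. For P2 minus U937T, which are both control lines, they ran from -0.19 to 0.21. The latter range sets 1 array against 1, so the ranges differ in precision. The highest window, UBAC2-AS1 to TPP2 on chromosome 13, gave 0.25 in E10, 0.19 in E14 and 0.07 in P2, each minus U937T. The lowest, ZNF596 to DEFB1 on chromosome 8, gave -0.07, -0.16 and 0.02. Whether a segment differs was not tested.

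RNA integrity was read from the control probe sets as the 3′ minus 5′ difference of actin and GAPDH. It was 0.66 in E10, 0.74 in E14, 0.84 in P2 and 1.06 in U937T, against 0.19 to 1.52 over the series. The clones lay below both control lines (exact permutation test, two-sided, p = 0.33, the smallest that 2 against 2 arrays can give). With this value as a covariate, the differences of the 30 genes with the widest gap kept their sign, at 0.398 to 1.69 times their size, whereas those of CD52, IFIT1, MAN1A1, RPLP2 and JUN changed sign.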

How the data were processed

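The authors deposited log2 intensities of Affymetrix HG-U133 Plus 2.0 arrays, made from their scans by Robust Multi-array Analysis (background correction, quantile normalization and median polish). Software versions are not given in the sources used here. Quantile normalization forces equal distributions on all arrays, so a shift shared by all genes cannot be seen. The values were used as deposited. Of 54675 probe sets, 41097 had 1 gene symbol, and 36323 of these had a mean of at least 3 in both groups. Each of 18147 genes was read on its brightest probe set. The groups were compared with limma 3.58.1 in R 4.3.3 (2 residual and 5.07 prior degrees of freedom), with Benjamini-Hochberg adjustment, and an adjusted p under 0.05 was called. The change at 24 h came from limma on the 16 clone arrays with the clone as a block. The procedure was also run on simulated data, with planted differences larger than that of any of the 18147 genes. That run does not show whether differences of the size found here would be called. Groups came from the labels. Array number limits precision, and no depth applies.

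The members, the gene lists and the rule for named genes were chosen with earlier results of these data known. Named were MECOM, MS4A3 and CD52, the 15 genes per direction with the widest gap (none was called), up to 4 members of each list with the largest differences, and the 5 largest differences of a single line. Genes of the Y chromosome were not named. ASNS, SLC3A2, SLC7A1, ATF4, KCNH2, IRX3, MYOF, LGALS1, CHFR and RSBN1L lie outside this rule and were picked once their values were known. The intensity filter, the choice of probe set, array centring, the variance model, the arrays fitted, the level of the clones, an RNA integrity covariate, a 2-fold minimum, the window size and each line left out were varied.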

Additional observations from a re-analysis of the deposited data

Results flagged for a closer look

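Groups that were apart with tet and apart in the opposite direction without tet at 48 h were found for 5 genes named in the report. The difference of the clones minus the control lines was 0.51 with and -0.26 without tet for ASNS, 0.41 and -0.44 for SLC3A2, 0.12 and -0.38 for ATF4, 0.16 and -0.88 for SLC7A1, and 0.50 and -1.49 for INHBA. The change between the conditions was not tested.

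Probe sets that stood for no gene in the comparison also showed a gap of at least 1 with the clones higher. A probe set of FRMD4A gave 7.60 and 7.78 in E10 and E14 against 6.52 and 6.50 in P2 and U937T (difference 1.18), and kept to 7.51 to 8.19 over all clone arrays with tet. A probe set of RSBN1L gave 8.61 and 8.34 against 7.11 and 7.32 (difference 1.27), and one with no gene symbol gave 8.16 and 8.01 against 6.85 and 6.36 (difference 1.48). Over all clone arrays with tet these last probe sets ranged from 5.06 to 8.61 and from 5.28 to 8.16. With the clones lower, CHFR is given in the report, and a pair of probe sets without a gene symbol had a gap of at least 1, with 6.57 and 6.96 against 8.20 and 8.33, and 7.98 and 8.25 against 9.45 and 9.79 (difference -1.50 in both).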

How the results depend on the processing

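No paired analysis was possible because the replicate numbers only name the lines and pair no clone with a control line. The counts called in the clones, higher and lower, were 0 and 0 as reported, and 4 and 1 with a mean intensity of at least 5, 41 and 16 with trend and robust variances, 4 and 0 with the 8 arrays at 48 h and the line as a random block, 3 and 1 with all 20 arrays and this block, 2 and 1 without it, 2 and 3 with each clone as its mean over 4 times, and 0 and 1 with the most variable probe set of each gene. Each fit without 1 line (range 0 to 0 in both directions), without an intensity filter, with centring, with the RNA integrity covariate or with a 2-fold minimum called 0. Genes with a gap of at least 1, higher in the clones, numbered 3 as reported, 5 with the most variable probe set of each gene, 6 with each clone as its mean over 4 times, and 3 to 9 without 1 line (9 without P2, 7 without U937T), and lower genes 3 to 6 without 1 line (5 without E14, 6 without U937T). The median of the stress response list was 0.33 with the most variable probe set of each gene, -0.016 with the clone means, and 0.14 to 0.26 without 1 line. The members of that list higher at an unadjusted p under 0.05 numbered 5 with the clone means, 7 without E14 and 7 without P2, against 12. At an adjusted p under 0.05, 40.5% of the 84 higher genes rose at 24 h. The share was 17.5% with the most variable probe set of each gene and 23% for means at least 0.3 apart. For the lower genes these shares were 0%, 1.96% and 3%. The limit of 0.3 and the fits without the E14 arrays at 24 h or without all clone arrays at 48 h were chosen after seeing the data. Windows of 10 genes gave medians from -0.31 to 0.29 and windows of 40 genes -0.10 to 0.13.

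Of 63 genes over 14 settings, 12 values changed sign, none of them called. With the clone means, set against control arrays at 48 h only, these were GNL3L (-0.052), STEEP1 (-0.46), DDIT4 (-0.40) and ATF4 (-0.031). With the integrity covariate they were CD52 (-0.52), IFIT1 (-0.056), MAN1A1 (-1.16), RPLP2 (0.26) and JUN (-0.41). Without U937T they were CD52 (-0.14) and MAN1A1 (-0.088), and without P2 IL23R (0.32). The cause was not tested. With 2 lines per group and 1 array each, differences of a clone, of a culture and of an array cannot be told apart.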
